A study of Mus musculus with 12 samples.

Results

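The beta-tubulin genes Tubb2a, Tubb2b, Tubb3, Tubb4a, Tubb4b, Tubb5 and Tubb6 were measured in cultured mouse oligodendrocyte precursor cells (OPCs) that were left as controls (Ctr), given dexamethasone (Dexa) or given interferon gamma (IFNg). These 7 genes were taken by name from 55536 genes in the files. All 7 passed the filter on low counts, as did 17919 genes in all. The family was put forward with results of both treatments already known, so the levels and changes below describe it, and the adjusted p-values of its members are not independent evidence.

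The OPCs came from the brains of pups aged P4 to P6 (postnatal days 4 to 6). Several brains were pooled for each culture. The paper's methods place the replicates of a condition in different litters, but do not name the Dexa cultures. Cells were isolated either by FACS for Sox10-driven GFP, from Sox10:Cre-RCE:LoxP(EGFP) mice in which the Sox10 promoter drives Cre, or by MACS for CD140a. The labels name every library Sox10GFP+ OPCs and do not tie a method to each. All groups were grown in proliferation medium with PDGFaa and bFGF. Dexa cultures received 1 µM dexamethasone, a glucocorticoid receptor agonist, for 48 h, and IFNg cultures received 100 ng/ml of the cytokine for 48 h. The labels also carry the mouse model tag EAE for every library, Ctr included, although the cells are pup cultures. Bulk total RNA was sequenced, so fewer cells of a type and less RNA per cell cannot be told apart.

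Beta-tubulin pairs with alpha-tubulin to form the heterodimer that polymerizes into microtubules. Its isotypes are encoded by separate genes, share a highly conserved core, and differ mainly in an acidic carboxy-terminal tail on the outside of the microtubule, which is the site of polyglutamylation and a contact for motors and associated proteins. Tubb3 is the classic neuronal isotype and is widely used as a neuron marker. Tubb4a is the isotype best known from myelinating oligodendrocytes, and its mutations cause the leukodystrophy hypomyelination with atrophy of the basal ganglia and cerebellum. Tubb5 and Tubb4b are broadly expressed, Tubb2a and Tubb2b are abundant in developing brain, and Tubb6 is a minor, more widely distributed isotype.

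The tail-coding sequences are shown because they are where the isotypes part, and because they bear on how far short reads can separate the genes. The last 75 coding bases, stop codon included, of the annotated transcript that carried most reads of each gene lie in the last exon. They are given 5′ to 3′ on the coding strand from the GENCODE M21 transcripts, with GRCm38 positions. Capitals mark the GAA, GAG, GAC and GAT codons, which encode the acidic residues.
Tubb3, chr8:123421608-123421682, plus strand: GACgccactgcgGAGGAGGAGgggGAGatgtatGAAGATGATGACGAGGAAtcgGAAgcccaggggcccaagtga
Tubb4a, chr17:57080690-57080764, minus strand: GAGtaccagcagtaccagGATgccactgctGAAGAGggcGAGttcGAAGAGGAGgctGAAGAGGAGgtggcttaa
Tubb4b, chr2:25222308-25222382, minus strand: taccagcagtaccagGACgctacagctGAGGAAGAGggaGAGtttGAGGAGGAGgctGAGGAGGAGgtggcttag
Tubb5, chr17:35834982-35835056, minus strand: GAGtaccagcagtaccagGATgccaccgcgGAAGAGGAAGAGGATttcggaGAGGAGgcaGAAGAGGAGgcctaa
Tubb2a, chr13:34074468-34074542, minus strand: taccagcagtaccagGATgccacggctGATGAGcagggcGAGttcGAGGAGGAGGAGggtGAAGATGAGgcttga
Tubb2b, chr13:34127471-34127545, minus strand: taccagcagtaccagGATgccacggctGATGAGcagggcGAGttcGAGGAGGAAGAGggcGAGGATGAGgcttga

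All 7 tails, Tubb6 included, hold 11 or 12 acidic codons among their 24. As cut here, at equal length back from the stop codon, the Tubb3 tail was the least like the others. In it, 48.1% to 52.5% of aligned bases were identical to any other member. Tubb3 has the longest coding region, so its tail starts later and lacks the opening bases that the other printed tails share. Part of the low identity therefore comes from this offset, and how large a part was not tested. Tubb2a and Tubb2b matched at 96% of tail bases and 96.5% of coding bases, whereas all other pairs matched at 80.2% to 86.0% of coding bases. Coding regions ran from 1335 bases (444 codons before the stop) in Tubb4a and Tubb5 to 1353 bases (450 codons) in Tubb3, each from a transcript of 4 exons.

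This sequence likeness sets how well reads could be assigned. Of all 31-base words in its transcript, Tubb3 shared 3.3% with any other gene, Tubb4a 1.9%, Tubb6 3.9% and Tubb5 4.5%. Tubb2a shared 56.4% and Tubb2b 45.9%, mostly with each other. The split of reads between these neighbours on chromosome 13 is therefore less certain than the values of Tubb3, Tubb4a, Tubb5 and Tubb6. Tubb4b shared 70.4%, mostly with the pseudogene Tubb4b-ps1. The processed pseudogenes Tubb2a-ps2, Tubb4b-ps1 and Tubb4b-ps2 and the platelet isotype gene Tubb1 together took 0.0322% to 0.067% of beta-tubulin reads in any library. Tubb1 had 0 to 5 reads per library and was not tested. All reads of Tubb3 (ENSMUSG00000062380, chr8:123411424-123422015, plus strand) were assigned to 1 transcript, ENSMUST00000071134.

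Of the 12 libraries, 11 listed all 141862 transcripts, with 19209063 to 52074652 reads assigned. The table of Dexa replicate 3 stopped after 47855 transcripts, or 33.7%. It listed Tubb2a and Tubb2b but not the other 5 members, so Dexa values are of 3 libraries unless stated. The treatments left their known marks. The interferon-induced transcription factor gene Irf1 rose from 364 ± 31.9 normalized counts in Ctr to 23607 ± 983 in IFNg (SD, n = 4 each). The glucocorticoid-induced chaperone gene Fkbp5 rose from 1444 ± 254 to 4006 ± 636 in Dexa (n = 3), with adjusted p = 3.99e-10 in DESeq2. OPC markers were abundant, with Pdgfra at 83.3 to 420 TPM (a measure of transcripts scaled by length and library) and Sox10 at 30.9 to 167 TPM over the complete libraries. Libraries with the same replicate number deviated together from their group means (r = 0.404 to 0.723 in 10 pairs, against -0.614 to 0.495 in 30 pairs of other numbers), so each comparison was also fitted with the number as a block.

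Of the beta-tubulin message in these OPCs, 4 genes supplied nearly all. The 7 members together took 0.336% ± 0.0953 of reads in Ctr, 0.34% ± 0.0542 in Dexa and 0.421% ± 0.0907 in IFNg (SD, n = 4, 3 and 4). On the TPM scale, Tubb2a, Tubb2b, Tubb4b and Tubb5 made up 95.7% ± 0.979 of the family in Ctr, 95% ± 1.65 in Dexa and 95.1% ± 0.958 in IFNg.

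In Ctr, the order of levels per length began with Tubb2b at 421 ± 65.4 TPM, Tubb5 at 311 ± 115, Tubb2a at 190.1 ± 73.0 and Tubb4b at 108 ± 39.2 (SD, n = 4). Tubb6 followed at 19.4 ± 11.7 TPM, Tubb4a at 14.6 ± 10.25 and Tubb3 at 10.4 ± 0.52. The ranges of neighbours in this order overlapped, except between Tubb4b (73.1 to 148 TPM) and Tubb6 (7.6 to 30.0 TPM), which separated the abundant from the scarce isotypes. Tubb3 was therefore among the least abundant isotypes, and it was also the most even, with values of 9.81 to 11.0 TPM in the 4 Ctr libraries, where Tubb4a ran from 4.2 to 28.6 TPM.

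In IFNg, Tubb5 averaged 531 ± 163 TPM and Tubb2b 526.3 ± 71.2, followed by Tubb2a at 281 ± 93.0, Tubb4b at 161 ± 54.7, Tubb6 at 36.15 ± 22.2 and Tubb3 at 35.4 ± 15.4, with Tubb4a last at 8.12 ± 3.07. Tubb3 and Tubb4a exchanged places. TPM of Tubb3 exceeded that of Tubb4a in all 4 IFNg libraries, by 2.14 to 13.6 times, whereas it did so in 1 of 4 Ctr libraries and 2 of 3 Dexa libraries. The order in Dexa was that of Ctr, from Tubb2b at 411 ± 17.7 TPM to Tubb3 at 13.0 ± 0.816. TPM itself shifted between groups, since the median gene was 0.17 higher in IFNg than in Ctr on the log2 scale, against -0.02 for normalized counts, so changes between groups are given below on normalized counts.

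**Figure D1:**
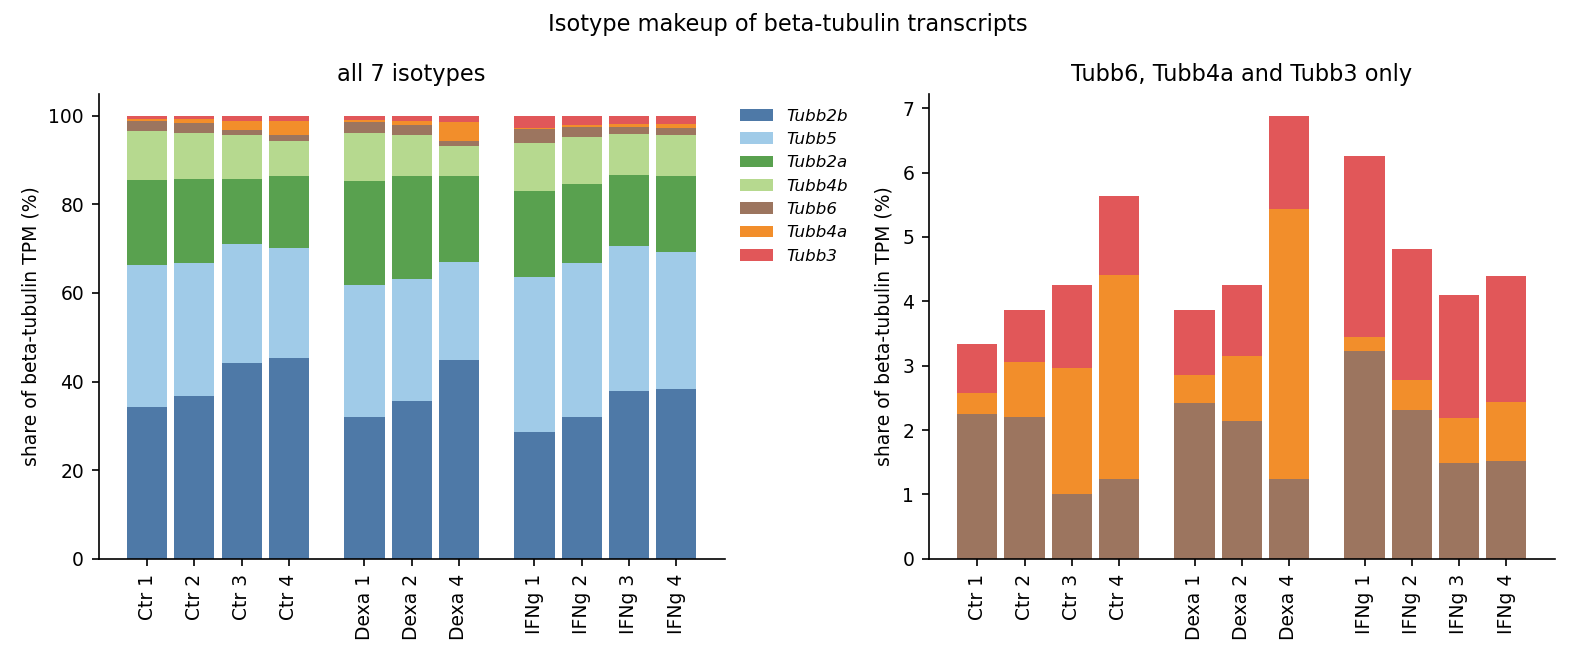
Each bar is 1 complete library, and colours give each gene's share of the summed TPM of the 7 beta-tubulin genes, for all isotypes (left, 0 to 100%) and for Tubb6, Tubb4a and Tubb3 alone (right, expanded axis). The abundant genes Tubb2b, Tubb5, Tubb2a and Tubb4b fill 93.1% to 96.7% of every bar, and within the remainder the Tubb3 segment is tallest in the 4 IFNg libraries while the Tubb4a segment varies with replicate number.

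Tubb3 rose with IFNg. Its normalized counts in replicates 1 to 4 were 1015, 892, 840 and 1032 in Ctr and 4528, 2692, 2070 and 1954 in IFNg. Every IFNg library lay above every Ctr library, and the lowest IFNg value was 1.89 times its own control. Replicate 1 had the largest ratio within a number, 4.46, followed by 3.02, 2.465 and 1.89 in replicates 2, 3 and 4.

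The log2 fold change of Tubb3 was 1.57 ± 0.25 (SE), a fold of 2.98, with adjusted p = 1.28e-08 in DESeq2 and 0.00167 in edgeR. With the replicate block it was 1.52 ± 0.16 in DESeq2 (adjusted p = 5.07e-19). In TPM, Tubb3 went from 10.4 ± 0.52 to 35.4 ± 15.4, a log2 ratio of 1.76 beside the shift of 0.17 in the median gene. Among all 17919 genes tested, 14.3% had groups that did not overlap, and 8.66% had IFNg above Ctr. Tubb3 was the 1 of 7 members called in this comparison, where the share called over all genes was 12.8% with DESeq2, and 8.02% higher. Since this contrast was known when the family was chosen, nothing is read from that count.

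Tubb3 was also slightly higher with Dexa, without passing the test. The 3 Dexa libraries had 1167, 1120 and 1220 normalized counts in replicates 1, 2 and 4, all above the highest Ctr value of 1032. Ratios within a number were 1.15, 1.255 and 1.18, which put Dexa between Ctr and IFNg in each of these replicates. The log2 fold change was 0.31 ± 0.27, with adjusted p = 1 in DESeq2 and 0.896 with the block, and 4.26% of all genes had Dexa and Ctr groups that did not overlap, 2.58% with Dexa above.

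As a share of the family, Tubb3 held 0.678%, 0.716%, 1.14% and 1.06% of beta-tubulin reads in Ctr replicates 1 to 4. The share was 0.9%, 0.989% and 1.27% in Dexa replicates 1, 2 and 4, and 2.475%, 1.8%, 1.66% and 1.7% in IFNg replicates 1 to 4. IFNg exceeded its control by 0.523 to 1.8 percentage points in 4 of 4 pairs and Dexa by 0.209 to 0.273 in 3 of 3. The group means differed by 1.01 points for IFNg and 0.1555 for Dexa, whose value is below every pair because the Ctr mean includes replicate 3. Without Dexa replicate 4 it was 0.046, and without Ctr replicate 1 it was 0.0819. Tubb3 therefore remained a small part of the pool, with less than 3 reads in 100 in the library where it was highest.

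**Figure D2:**
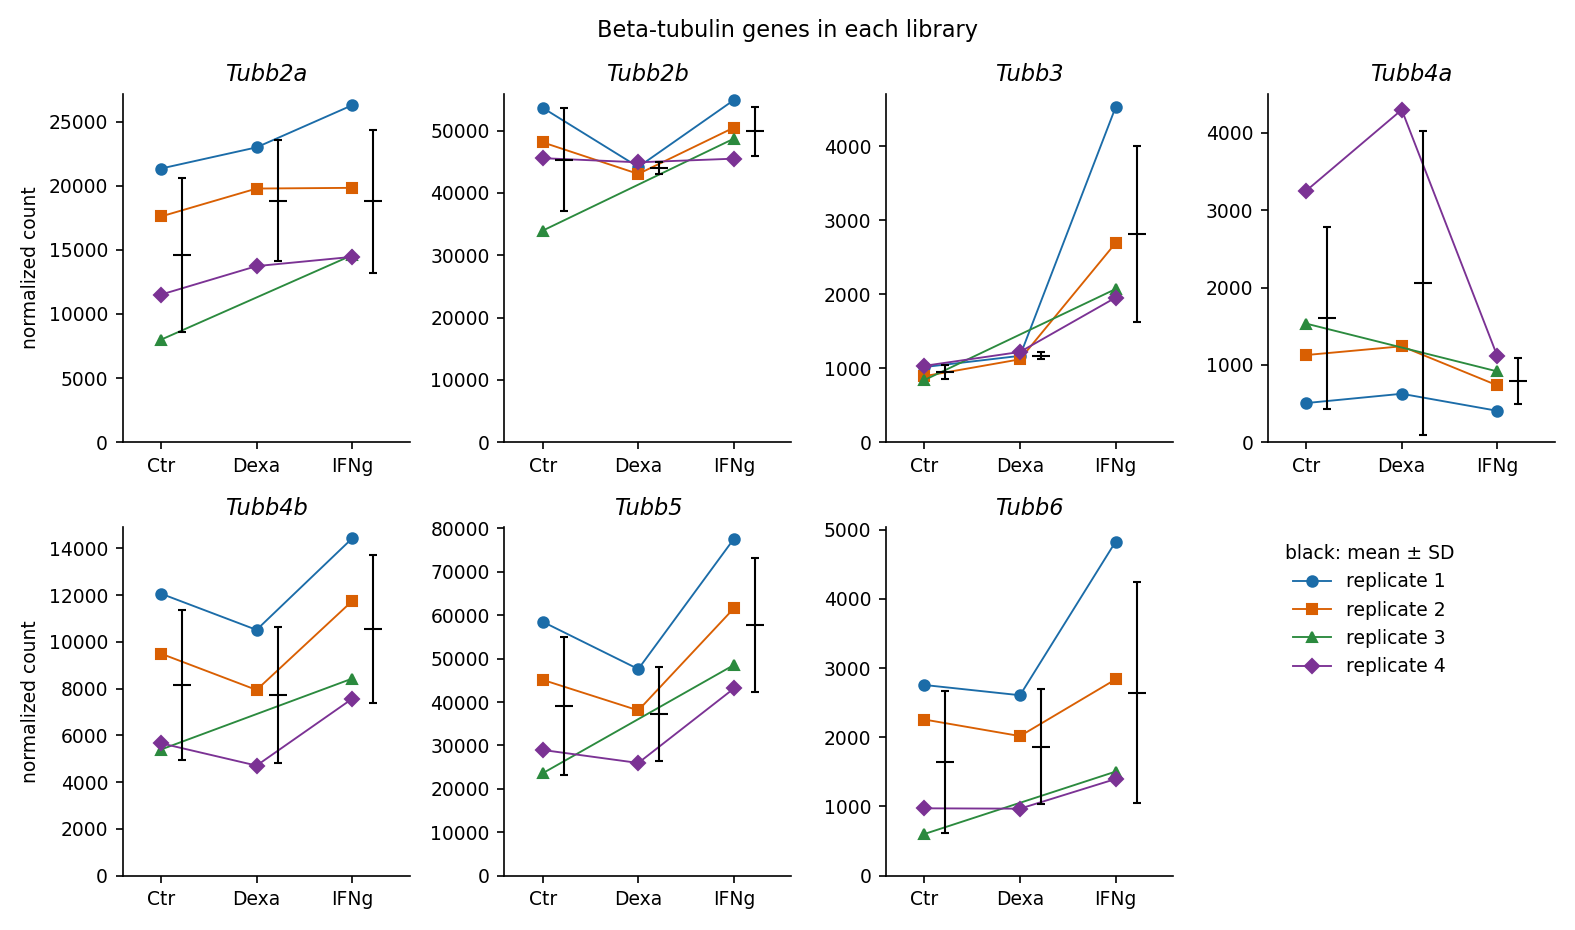
Each panel plots 1 beta-tubulin gene, with normalized counts on a linear axis from 0, the 3 groups on the x axis, 1 point per library and lines joining libraries of the same replicate number (Dexa replicate 3 has no point). Black bars give mean ± SD, and all IFNg points of Tubb3, from 1954 to 4528, lie above its highest Ctr point at 1032, whereas the other genes overlap between groups and are ordered largely by replicate number.

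Neuron markers did not move with Tubb3 as a list in IFNg. The 14 genes of the list summed to 108 to 188 RPM (reads per 1000000 reads in genes) in Ctr, 127 to 216 in Dexa and 115.5 to 179 in IFNg. Of the transmitter genes that define neurons, 3 of 4 were at or near 0. The vesicular glutamate transporter gene Slc17a6 had 0 to 2 reads per library and Slc17a7 1 to 7. The GABA-synthesis gene Gad2 had 1 to 6 reads in Ctr, 2 to 3 in Dexa and 6 to 10 in IFNg. In RPM, Gad2 in IFNg (0.1985 to 0.291) lay above Ctr (0.0323 to 0.115) and Dexa (0.0656 to 0.104), and it was not tested. The fourth, the GABA-synthesis gene Gad1, had 26 to 67 reads in Ctr, 19 to 47 in Dexa and 7 to 27 in IFNg (log2 -1.17 ± 0.57 in IFNg, adjusted p = 0.194 in DESeq2, and -1.33 ± 0.37 and 0.00188 with the block). The nuclear marker gene Rbfox3 had 18 to 84 reads. Of 11 list genes tested in IFNg, 2 rose without the block, the synaptic calcium sensor gene Syt1 (log2 1.10 ± 0.20, adjusted p = 1.07e-06 in DESeq2) and the RNA-binding protein gene Elavl4 (0.57 ± 0.19, adjusted p = 0.0208, but 0.0627 in edgeR). Over all genes 8.02% were higher without the block. The median log2 change of the 11 was -0.22, beside -0.02 over all genes. With the block, 3 rose and 4 fell, where 15.2% of all genes were higher and 14.1% lower. In Dexa 0 of 11 were called, and 2 rose with the block, where 0.547% and 2.57% of all genes were called. There 9 of 11 had a positive log2 change without the block, with a median of 0.13 beside -0.01 over all genes. The list summed to 127, 179 and 216 RPM in Dexa replicates 1, 2 and 4, against 108, 160 and 186 in their controls. Its part in the Tubb3 result was not tested.

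Of the genes at the Tubb3 locus on chromosome 8, Def8 and Gm20388 had similar ranges in all groups. Def8 ranged from 52.4 to 63.6 RPM over all complete libraries. Mc1r, the melanocortin receptor gene, was near 0, with 0 to 4 reads in Ctr, 1 to 8 in Dexa and 2 to 9 in IFNg. Gm20388, whose span overlaps Tubb3 but whose exons do not, ranged from 101 to 129 RPM. Mc1r was not tested, and neither Def8 nor Gm20388 was called in either comparison in DESeq2, with or without the block.

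The 5 protein-coding genes whose log2 normalized counts followed Tubb3 most closely over the 11 complete libraries, among 11323 genes with a mean of at least 100, were Spsb1 (Pearson r = 0.98), Tgm2 (0.967), Sbno2 (0.962), Tmtc1 (0.961) and Pnpla2 (0.959). These libraries share the 3 group means and the replicate numbers, so r describes likeness of pattern only. All 5 were called higher in IFNg, as were 8.02% of all genes. They were chosen by likeness to Tubb3, which differs between these groups. Their calls and adjusted p-values were therefore largely set by that choice. Spsb1, which encodes a substrate adaptor of a ubiquitin ligase, went from 199 ± 23.1 to 572 ± 163 normalized counts, close in fold to Tubb3 (log2 1.53, adjusted p = 3.93e-12 in DESeq2). Tgm2, the tissue transglutaminase gene, moved further, from 39.6 ± 8.85 to 688 ± 440 (log2 4.13, adjusted p = 1.1e-23). Pnpla2, the adipose triglyceride lipase gene, went from 462.4 ± 25.01 to 1305 ± 252 (log2 1.497, adjusted p = 2.44e-24). In Dexa the log2 changes of the 5 genes were small, 0.07 to 0.24, with adjusted p = 1.

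Tubb4a was lower in IFNg in every replicate, but its level varied so much between replicates that the groups overlapped. Its normalized counts were 506, 1127, 1534 and 3251 in Ctr replicates 1 to 4 and 405, 734, 915 and 1112 in IFNg. Ratios within a number were 0.8015, 0.652, 0.5965 and 0.342, so the ratio was lowest in replicate 4, where the control level was highest. Without the block its log2 change was -1.02 ± 0.62 (adjusted p = 0.344 in DESeq2, and -0.42 with adjusted p = 0.853 when Ctr replicate 4 was left out), and with it -0.78 ± 0.17 (adjusted p = 3.44e-05, and 0.00845 in edgeR). Without the libraries of replicate 3 the blocked adjusted p was 0.0549.

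The spread of Tubb4a among controls went with oligodendrocyte maturation genes. The 16 differentiation genes summed to 907, 1676, 2863 and 3674 RPM in Ctr replicates 1 to 4, the same order as Tubb4a, and to 594, 986, 1294 and 1276 in IFNg. Of 13 differentiation genes tested in IFNg, 0 rose and 3 fell, or 0 and 6 with the block. Of 14 OPC markers 0 rose and 2 fell, or 0 and 11 with the block. Over all 17919 genes tested, 865 were called lower without the block and 2521 (14.1%) with it. The part of these lists in the Tubb4a result was not tested.

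With Dexa, Tubb4a had 626, 1240 and 4300 normalized counts in replicates 1, 2 and 4, or 1.24, 1.10 and 1.32 times the controls of the same number. Its log2 change was 0.36 ± 0.67 without the block and 0.30 ± 0.19 with it (adjusted p = 1 and 0.754 in DESeq2). Without Dexa replicate 4 the unblocked value was -0.78, and replicate 4 had the highest Tubb4a in both groups. Differentiation genes summed to 1011.1, 1714 and 3706 RPM in these Dexa libraries.

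Tubb5, the main isotype of dividing cells, had 58488, 45110 and 23588 normalized counts in Ctr replicates 1 to 3 and 28960 in replicate 4. In IFNg it had 77594, 61588, 48529 and 43122.5. The ratios within a number were 1.33, 1.365, 2.06 and 1.49, so each IFNg library was above its own control while 2 of 4 were above every control. Without the block the log2 fold change was 0.56 ± 0.32 (adjusted p = 0.295 in DESeq2) and 0.62 ± 0.10 with it (3.85e-09). Leaving out Ctr replicate 1 also brought Tubb5 past the threshold without the block, at adjusted p = 0.0447.

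Tubb4b followed Tubb5 closely (r = 0.9685 over 11 libraries, which share groups and replicate numbers). It had 12061, 9495, 5394 and 5663 normalized counts in Ctr replicates 1 to 4 and 14425, 11744, 8428 and 7565 in IFNg, a ratio of 1.2 to 1.56 within a number. Its log2 fold change was 0.37 ± 0.34 (adjusted p = 0.597 in DESeq2), and 0.41 ± 0.08 with the block (1.88e-06). Most of its sequence is shared with pseudogenes. These held few reads, but that count comes from the same read assignment and cannot show how well the genes were separated.

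Tubb6, a scarce isotype, was higher in IFNg in every replicate and passed the test with the block. It had 2755, 2256, 602 and 973 normalized counts in Ctr replicates 1 to 4 and 4826, 2837, 1504 and 1397 in IFNg. Ratios within a number ran from 1.26 to 2.5, highest in replicate 3, where the control was lowest. The log2 fold change was 0.68 ± 0.53 (adjusted p = 0.506 in DESeq2), and 0.74 ± 0.13 with the block (1.53e-07). In Dexa it was 0.18 ± 0.58, or 0.00 ± 0.15 with the block.

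The closely related Tubb2a and Tubb2b differed in their blocked calls in IFNg, and the split of reads between them is uncertain, as given above. Tubb2a had 21346, 17606, 7992 and 11510 normalized counts in Ctr replicates 1 to 4 and 26287, 19841, 14588 and 14457 in IFNg, or 1.13 to 1.825 times the control of its number. Its log2 fold change was 0.36 ± 0.33 (adjusted p = 0.584 in DESeq2), and 0.42 ± 0.10 with the block (0.000336).

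Tubb2b, the most abundant isotype in Ctr, had 53661, 48119, 33945 and 45575 normalized counts in Ctr and 54907, 50483, 48711 and 45496 in IFNg. Its ratios were 1.02, 1.05, 1.435 and 0.998, close to 1 in 3 of 4 numbers. The log2 fold change was 0.14 ± 0.14, and 0.16 ± 0.10 with the block, with adjusted p = 0.64 and 0.235 in DESeq2. It was the 1 member not called under any fit of IFNg against Ctr. The difference between Tubb2a and Tubb2b itself was not tested.

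**Figure D3:**
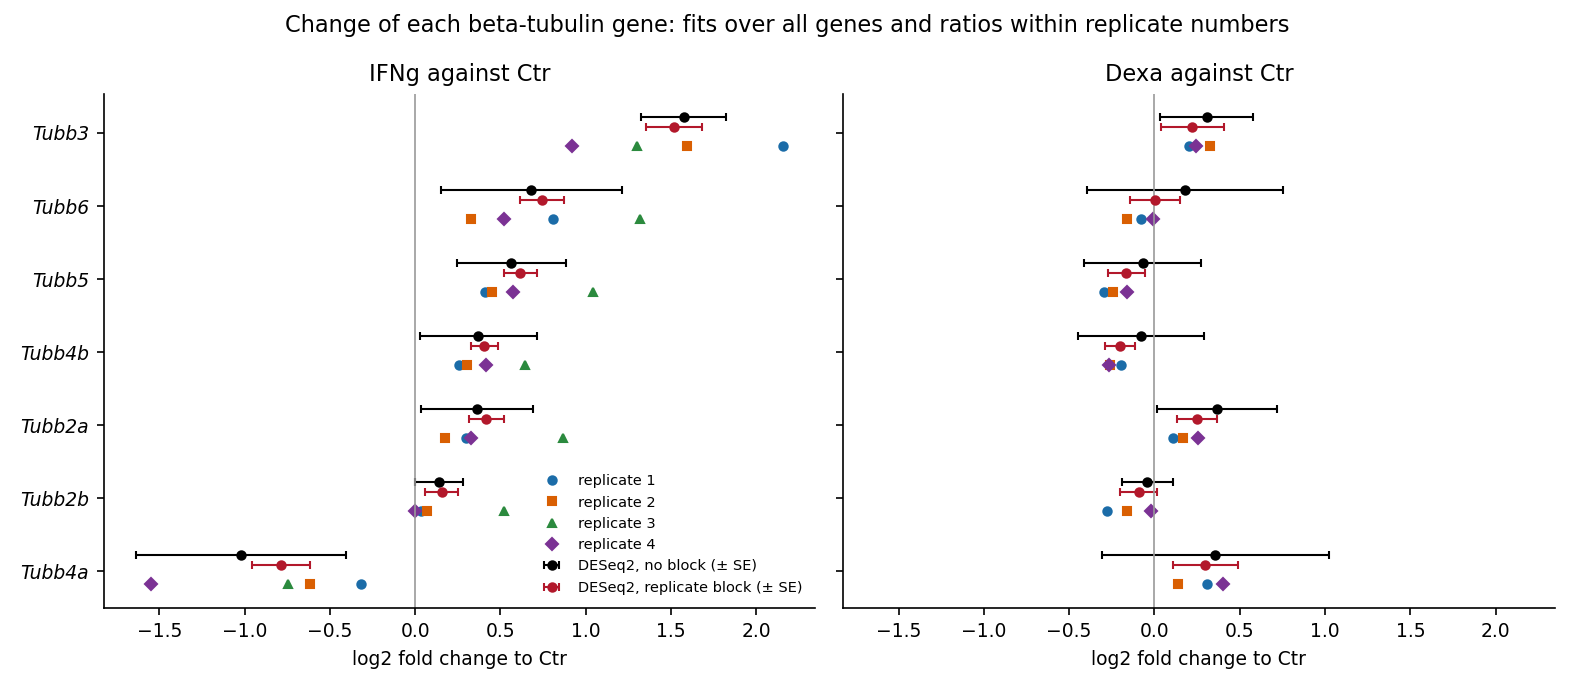
Log2 fold changes to Ctr (x axis) of each beta-tubulin gene (y axis) for IFNg (left) and Dexa (right). Black points give the DESeq2 fit without a block and red points the fit with replicate number as a block, both ± SE, and coloured symbols give the ratio within each replicate number. In IFNg the blocked values run from -0.78 for Tubb4a through 0.16 for Tubb2b, the gene not called, to 1.52 for Tubb3, while in Dexa all values lie within 0.4 of 0 in the blocked fit.

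Counted over the family, the block raised the members called in IFNg from 1 to 6 of 7, with 5 higher (Tubb2a, Tubb3, Tubb4b, Tubb5 and Tubb6) and 1 lower (Tubb4a), in both DESeq2 and edgeR. Over all genes the block raised the share called from 12.8% to 29.2% in DESeq2 (15.2% higher and 14.1% lower) and from 8.44% to 31.3% in edgeR (16.0% higher and 15.3% lower). Leaving out 1 replicate number at a time, the blocked DESeq2 fit called 5 or 6 members. The median log2 change of the members was 0.37 without the block and 0.42 with it, against -0.02 and -0.01 over all genes tested. IFNg was higher in all 4 pairs for these 5 members and lower in all 4 for Tubb4a, where 21.2% of all genes were higher and 23.4% lower in every pair.

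The family total followed the abundant genes. It was 1.22, 1.2, 1.69 and 1.19 times the control in IFNg replicates 1 to 4, on normalized counts. In RPM it averaged 3359 ± 953 in Ctr and 4212 ± 907 in IFNg, with ranges of 2285 to 4404 and 3381 to 5360 that overlapped. In Dexa it averaged 3402 ± 542, and its ratios within a number were 0.865, 0.909 and 0.988 on normalized counts, below 1 in 3 of 3.

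Within that total the makeup shifted in each treatment. With IFNg the share of Tubb2b was lower in 4 of 4 pairs, by changes of -7.48 to -4.94 percentage points, and averaged 35.6% ± 4.56 of reads against 41.8% ± 5.48 in Ctr. The share of Tubb5 was higher in 4 of 4, by 3.37 to 7.6 points, and averaged 40.0% ± 2.2 against 34.3% ± 4.14. Shares of Tubb2a (13.0% ± 1.13 against 12.8% ± 1.7) and Tubb4b (7.26% ± 0.694 against 7.2% ± 0.959) moved in both directions between pairs. Tubb4a averaged 1.67% ± 1.34 in Ctr and 0.603% ± 0.32 in IFNg, lower in 4 of 4 pairs, and Tubb6 was higher in 4 of 4, by 0.0817 to 0.799 points. Shares of 1 total are not independent of each other, and no test was run on them.

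With Dexa the shift was in Tubb2a. Its share was higher in 3 of 3 pairs, by 2.47 to 3.49 percentage points, and averaged 16.5% ± 1.89 of reads against 12.8% ± 1.7 in Ctr. The Ctr mean includes replicate 3, which had the lowest share (10.8%), so the means differ by more than any pair. Tubb5 changed by -2.771 to -2.335 points in the same pairs. Tubb2a had 23000.0, 19786 and 13736 normalized counts in Dexa replicates 1, 2 and 4, or 1.08, 1.12 and 1.19 times its controls. Like Tubb3 and Tubb4a it was higher in every pair, as were 21.0% of all genes. Replicate 3, which lists this gene, had 141 TPM against 111 in its control, so Tubb2a was higher in 4 of 4 Dexa pairs on the TPM scale (1.02 to 1.28 times) while Tubb2b was higher in 2 of 4 (0.81 to 1.04 times). The log2 fold change of Tubb2a was 0.37 ± 0.35, or 0.25 ± 0.11 with the block, with adjusted p = 1 and 0.424 in DESeq2.

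None of the 7 members passed the test with Dexa in either tool. Tubb5 had 47588, 38069 and 25958 normalized counts, 0.814 to 0.896 times its controls, and Tubb4b had 10511, 7943 and 4707, 0.831 to 0.872 times. Tubb2b (0.823 to 0.986 times) and Tubb6 (0.894 to 0.995 times) were also below their controls in 3 of 3 pairs, where 22.9% of all genes were lower in every pair. DESeq2 and edgeR, with or without the block, called 0 of 7 members, where the share called over all genes was 0.547% in DESeq2 and 2.57% with the block (0.123% and 1.57% in edgeR). At an unadjusted p under 0.05 there were 0 members without the block and 2 with it, Tubb4b and Tubb2a, in both tools, where 8.5% of all genes passed that level in blocked DESeq2 and 11.0% in blocked edgeR. Blocked log2 values were -0.20 ± 0.09 for Tubb4b and -0.17 ± 0.11 for Tubb5.

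Across all 11 libraries the members fell into a coordinated set and an opposite one. This describes libraries that share groups and replicate numbers. Tubb4b, Tubb5 and Tubb6 correlated at r = 0.9385 to 0.9685 with one another, and Tubb2a with Tubb6 at 0.963. Tubb4a was negatively correlated with every other member (-0.936 with Tubb4b to -0.4875 with Tubb3). Tubb3 had only moderate values with the remaining members, 0.476 with Tubb2a to 0.691 with Tubb5.

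Mitosis genes, which act in the dividing cell that builds its spindle from tubulin, are given here beside the coordinated set. The 15 mitosis genes summed to 3888, 3151, 2063 and 1444.5 RPM in Ctr replicates 1 to 4, to 3740, 2669 and 1150 in Dexa replicates 1, 2 and 4, and to 3824.5, 4126, 3065 and 3006 in IFNg. In IFNg 15 of 15 had a positive log2 change, and their blocked median was 0.56. Of these, 0 were called without the block and 11 were higher with it, where 15.2% of all genes were higher. In Dexa 15 of 15 were negative with 0 called, and the blocked median was -0.21. Over all genes 0.547% were called in Dexa without the block and 2.57% with it. The orders matched in part. In Dexa the sum and the counts of Tubb5, Tubb4b and Tubb6 all fell from replicate 1 to 2 to 4. In Ctr all were highest in replicate 1, followed by replicate 2. They differed elsewhere. Ctr replicate 4 had the lowest mitosis sum while Tubb5, Tubb4b and Tubb6 had their lowest Ctr value in replicate 3, and in IFNg the sum was highest in replicate 2 while these 3 genes were highest in replicate 1. In replicate 1 the sum was lower in IFNg than in Ctr. The part of the mitosis genes in the changes of Tubb5, Tubb4b and Tubb6 was not tested.

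Of 66 other genes tested in 5 lists of the tubulin system, 5 were called in IFNg without the block, or 7.58% beside 12.8% of all genes, and 20 with it, or 30.3% beside 29.2%. Of the alpha-tubulins, the partners of beta-tubulin in the dimer, 5 of 8 genes were tested and 1 was called, Tuba8, from 4.55 ± 2.65 to 22.9 ± 4.85 normalized counts (log2 2.42 ± 0.48, adjusted p = 1.14e-05 in DESeq2). Tuba8 passed the count filter only through the 4 IFNg libraries (18 to 27 reads, against 2 to 7 in Ctr), so its call and fold were selected by the difference itself. Tuba1a, the most abundant alpha-tubulin, had 103706 ± 20661 normalized counts in Ctr and 105808 ± 10648 in IFNg (log2 0.03 ± 0.18, or 0.06 ± 0.13 with the block, adjusted p = 0.962 and 0.803). Tuba1b, with 33049 ± 13739 normalized counts in Ctr and 44564 ± 12279 in IFNg, was called with the block (0.49 ± 0.09, adjusted p = 1.01e-06). Alpha-tubulins summed to 3387 to 4670 RPM in Ctr and 3767 to 5280 in IFNg.

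Of 11 genes for gamma-, delta- and epsilon-tubulin and the gamma-tubulin ring, which nucleates microtubules, 0 rose and 1 fell, Mzt2 (log2 -0.43 ± 0.13, adjusted p = 0.00989 in DESeq2, but 0.0514 in edgeR). With the block 1 rose and 1 fell, where 15.2% of all genes were higher and 14.1% lower. Of 20 folding genes, the tubulin cofactors, the chaperonin CCT and prefoldin, 0 were called without the block. With it 3 rose, beside the same 15.2% of all genes. The median log2 change of the folding genes was 0.08.

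Of 16 genes for enzymes that modify the tubulin tail or for tubulin autoregulation, 1 rose, Vash2, which encodes a tyrosine carboxypeptidase of alpha-tubulin (519 ± 47.2 to 764 ± 102 normalized counts, log2 0.56 ± 0.14, adjusted p = 0.00129 in DESeq2). With the block 2 rose and 4 fell, where 15.2% of all genes were higher and 14.1% lower. Ttc5, whose product recognises nascent tubulin and directs decay of its message, had 1500.5 ± 83.7 normalized counts in Ctr and 1422 ± 34.2 in IFNg (adjusted p = 0.577).

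Of 14 genes tested for microtubule-associated proteins and stathmins, 1 rose and 1 fell. Map4, a ubiquitous microtubule stabilizer gene, went from 5603 ± 455 to 7599 ± 528 normalized counts (log2 0.44 ± 0.09, adjusted p = 5.15e-05 in DESeq2). Tppp, which encodes an oligodendrocyte microtubule-nucleating protein, went from 1411 ± 463 to 687 ± 282 (log2 -1.04 ± 0.37, adjusted p = 0.0429, but 0.122 in edgeR), in the direction of Tubb4a. With the block 3 rose and 4 fell, where 15.2% of all genes were higher and 14.1% lower. In Dexa 0 genes were called in any of these 5 lists without the block, and with it Map4 alone rose (0.27 ± 0.08, adjusted p = 0.0227). Over all genes, 0.547% were called without the block and 2.57% with it.

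Of other cell types, 8 astrocyte markers were tested in IFNg. In blocked DESeq2 4 rose and 3 fell, where 15.2% of all genes were higher and 14.1% lower. Without the block 0 fell and 2 rose, where 8.02% of all genes were higher. The 2 were Gfap, an intermediate filament gene, from 20.2 ± 15.0 to 288 ± 94.1 normalized counts (log2 3.82 ± 0.59, adjusted p = 3.98e-09 in DESeq2), and the aldolase gene Aldoc (0.78 ± 0.28, adjusted p = 0.0399, but 0.0985 in edgeR). In Dexa 0 astrocyte markers were called without the block and 2 rose with it, where 0.547% and 2.57% of all genes were called. The list summed to 587.5 to 1516 RPM in Ctr, 1170 to 2011 in Dexa and 1028 to 1532 in IFNg, and its part in the Tubb3 result was not tested. Microglia markers were scarce. In IFNg and Dexa 3 of 13 were tested with 0 called, where DESeq2 without the block called 12.8% and 0.547% of all genes. The microglia list summed to 8.63 to 14.1 RPM over all complete libraries.

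**Figure D4:**
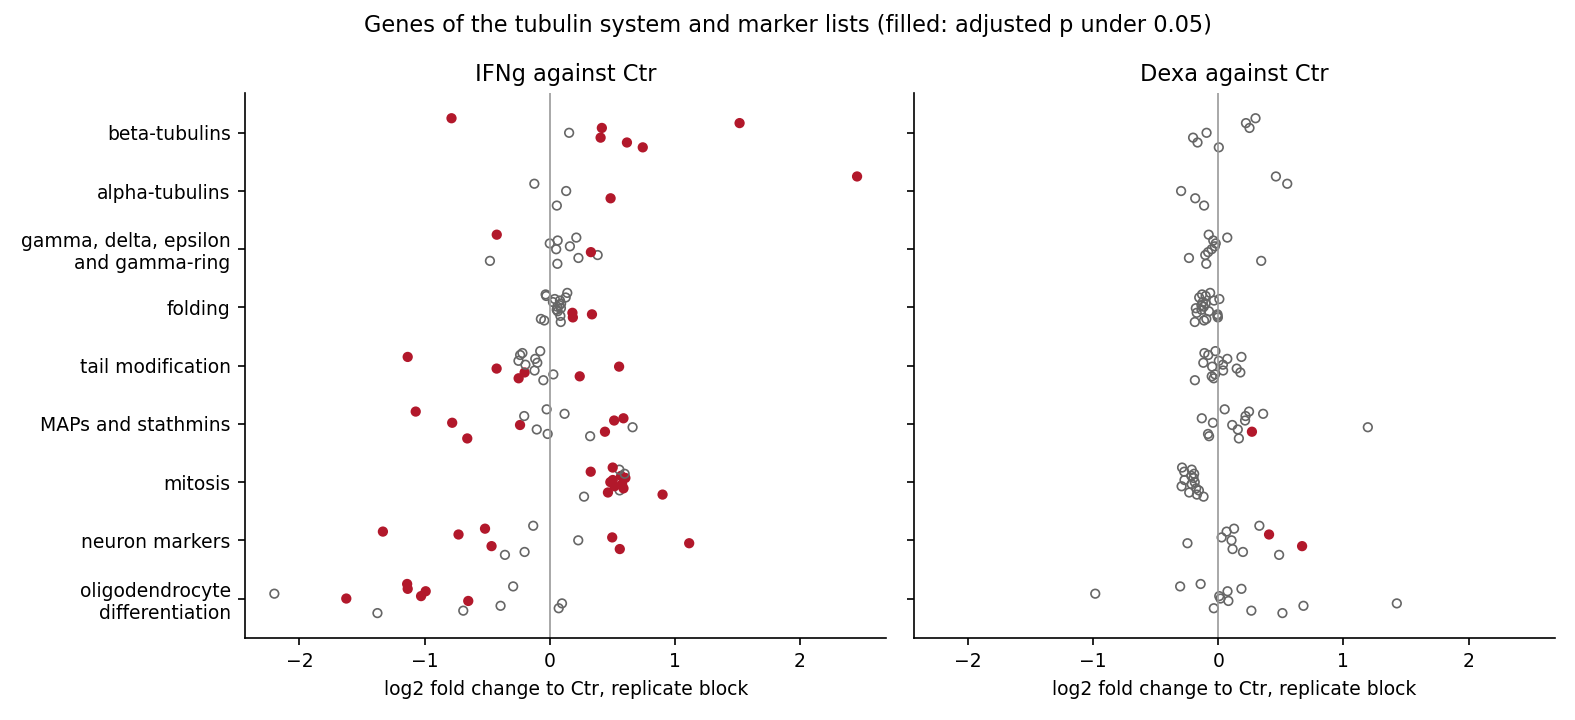
Each point is 1 gene, with its log2 fold change to Ctr in the DESeq2 fit with replicate block (x axis) for IFNg (left) and Dexa (right), grouped by list (y axis), and filled red where the adjusted p was under 0.05. In IFNg 6 of 7 beta-tubulins and 11 of 15 mitosis genes are filled, while the folding genes cluster near their median of 0.08. Over all genes, 29.2% were called in this IFNg fit, 15.2% higher and 14.1% lower. In Dexa no beta-tubulin is filled, where 2.57% of all genes were called. The members and lists were chosen with earlier results of these data known.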

How the data were processed

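Stranded total RNA libraries of 4 cultures per group were sequenced as paired reads. The authors quantified transcripts with Salmon 0.8.2, and per the deposited files each library gives estimated counts, TPM and effective length per transcript. Transcript names matched GENCODE M21 (GRCm38). Deposited tables of the authors' own comparisons were not used.

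Estimated counts were summed per gene and rounded. Dexa replicate 3, which is incomplete, entered only 1 alternative fit and the TPM values of Tubb2a and Tubb2b. Genes with at least 10 reads in at least 4 libraries were kept. DESeq2 1.42.0 (Wald test, Benjamini-Hochberg, threshold 0.05, R 4.3.3) was fitted over the 11 complete libraries without a block. The study's methods name DESeq2 for these libraries and give no model formula. A block for replicate number, edgeR 4.0.16 quasi-likelihood, TMM factors, no filter, transcript length offsets and left-out libraries were alternatives. Scripts were tested on simulated counts. Normalized counts are counts over DESeq2 size factors (0.572 to 1.61). Values are mean ± SD, fold changes ± SE. Replicates of a group differed by more than sampling noise (chi-square per degree of freedom of at least 23.6). That libraries of 1 number share a litter is inferred only from the number and the correlation given above. The members and gene lists were chosen with earlier results of these data known. Named genes were the 7 members, Tubb1 and pseudogenes, up to 4 called genes of each tubulin list, neuron and astrocyte markers called, treatment checks, neighbours of Tubb3, and the 5 genes most like it. Of the cell type and mitosis lists, other genes are given as counts and sums. Ttc5, Tuba1a, Tuba1b, Pdgfra, Sox10 and the transmitter genes were added for their known roles after their values were seen.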

Additional observations from a re-analysis of the deposited data

Results flagged for a closer look

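The share of Tubb3 among beta-tubulin reads in IFNg replicate 1, 2.475%, stood apart from the other 3 IFNg libraries, at 1.66% to 1.8%. Its gap to them exceeded the 95% critical value of Dixon's test. Of 30 groups of 4 libraries looked at this was the 1 that did so, and chance marks about 1 in 20. Without this library the difference between the mean shares of IFNg and Ctr was 0.819 percentage points in place of 1.01.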

How the results depend on the processing

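For IFNg against Ctr, 2302 genes were called by DESeq2 without a block, 5238 with the replicate block, 1513 by edgeR and 5606 by edgeR with the block, and the share of calls that were higher was 62.4%, 51.9%, 71.8% and 51.2%. For Dexa the counts were 98, 460, 22 and 282, with 92.9%, 80.0%, 95.5% and 83.3% higher. The members called in IFNg were 1 without the block and 6 with it in both tools, and the block changed no member call in Dexa. On the genes that Dexa replicate 3 lists whole, a fit of all 12 libraries called 834 genes for IFNg and 23 for Dexa, with Tubb2a and Tubb2b as the members that could be tested. Leaving out 1 library at a time without the block, 1577 to 2666 genes and 1 to 2 members were called in IFNg, and 59 to 112 genes and 0 members in Dexa, fewest without Dexa replicate 2. Blocked fits that left out 1 replicate number, added after the data were seen, called 4643, 3407, 4010 and 3911 genes in IFNg without replicates 1 to 4, with 6, 6, 5 and 6 members, and 259, 175, 424 and 325 genes and 0 members in Dexa. Tubb3 in IFNg kept its direction and call in all 18 alternatives, with log2 fold changes of 1.25 to 1.72. Without Tubb2a and Tubb2b in the family total, the Tubb3 share rose by 1.66 points in IFNg and 0.436 in Dexa, since the total is smaller. The Dexa values that changed sign were not called under any fit. Without 1 library they ranged from -0.16 to 0.0501 for Tubb2b, -0.78 to 0.96 for Tubb4a, -0.37 to 0.18 for Tubb4b, -0.29 to 0.19 for Tubb5 and -0.14 to 0.55 for Tubb6, and Tubb6 was at -0.0849 and -0.0048 in blocked fits without replicates 3 and 4. The cause was not tested. Groups of 3 or 4 libraries limit these comparisons.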
